A study of Mus musculus with 62 samples.

Results

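Brown fat of mice that received a mock injection was compared 8 weeks and 2 weeks after that injection. The comparison holds 10 of the 62 libraries of the series: 5 mock-injected mice (Con) at 8 weeks and 5 at 2 weeks, chosen by the ending of their library titles and by no measured value. It describes how normal brown fat differed over 6 weeks without a tumour, and it was read on the deposited values and again after the mitochondrially encoded genes had been taken out of the total. All 10 libraries came from brown adipose tissue of females whose label gives an age of 2 months, and no allele, transgene or drug is labelled. The sample labels name the strain C57BL/6J, whereas the text of the series names NCI Ath/nude mice, a strain without a thymus and so nearly without T cells. The other libraries used below are Con at 4 and 6 weeks and, for the same interval in the presence of a tumour, mice injected with non-cachectic melanoma cells (NCAC) at 8 and 2 weeks, with 5 libraries in each group. The labels call the libraries biological replicates and tie none of them to a litter or cage, so different mice stand at each time. Time after injection can therefore not be told apart from anything else that differed between these sets of mice, such as the handling of their libraries. The same age label stands at 2 and at 8 weeks, so it does not show the 6 weeks between them.

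Brown fat burns fatty acids and glucose to make heat. Its adipocytes are packed with mitochondria, whose inner membrane carries uncoupling protein 1 (Ucp1), and noradrenaline from sympathetic nerves sets the process in motion through beta-adrenergic receptors and cyclic AMP. Dense capillaries supply oxygen and fuel, and macrophages, mast cells, fibroblast-like progenitors and nerves lie between the adipocytes. The mitochondrial genome encodes 13 proteins of the respiratory chain and of ATP synthase, and every other mitochondrial protein comes from nuclear genes.

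RNA was measured as TPM, a share of a fixed total of transcripts per library, corrected for transcript length. TPM keeps no read numbers, so the depth of a library is unknown. Between 10851 and 11341 genes reached 1 TPM in the 10 libraries. The 12 brown adipocyte markers summed to 19521 to 24163 TPM in Con at 8 weeks and 18893 to 24272 TPM in Con at 2 weeks, so the labelled tissue showed its markers in every library. None of 14 T cell markers reached the filter described next, and their highest value in the 10 libraries was 0.831 TPM, for Trbc2. In tissue samples, fewer cells of a type and less RNA per cell cannot be told apart. The test took in genes that reached 1 TPM in 5 or more of the 62 libraries, which left 12581, or 12568 without the mitochondrially encoded ones. Changes are differences of mean log2(TPM + 1), Con at 8 weeks minus Con at 2 weeks, and limma called a gene where its p, adjusted by Benjamini-Hochberg, was under 0.05.

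The mitochondrially encoded genes took a larger share of the TPM total at 8 weeks, most of it through mt-Atp8, described next. They made up 65.5, 59.9, 63.5, 61.0 and 64.2% of TPM in Con at 8 weeks, against 58.8, 59.1, 57.6, 56.4 and 59.1% in Con at 2 weeks. The groups did not overlap. The means were 62.8 ± 2.33% at 8 weeks and 58.2 ± 1.17% at 2 weeks (SD, n = 5 each), a difference of 4.62 points, with a 2-sided exact permutation p of 0.00794, the smallest that 5 libraries against 5 allow, and 0.0238 after adjustment over 3 such comparisons. The difference ran between 3.94 and 5.35 points when each library was left out in turn.

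A single gene, mt-Atp8, supplied 61.6% of that difference. It encodes a small subunit of the membrane part of ATP synthase and lies on the mitochondrial chromosome at chrM:7766-7969, plus strand, GRCm38. With 204 bases it is the shortest of the 13, and its last 43 bases, at positions 7927 to 7969, also belong to mt-Atp6. How the authors assigned reads from the shared bases is not given in the sources used here, so the split between these neighbours is uncertain. The transcript is shown because the finding on the share turns on it, with the bases shared with mt-Atp6 in capitals, from the GENCODE transcripts for GRCm38.
mt-Atp8: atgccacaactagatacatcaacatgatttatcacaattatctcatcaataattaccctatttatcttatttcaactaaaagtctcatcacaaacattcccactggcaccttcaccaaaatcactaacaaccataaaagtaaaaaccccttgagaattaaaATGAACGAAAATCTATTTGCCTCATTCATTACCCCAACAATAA

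The level of mt-Atp8 was 74143, 67009, 64948, 63115 and 65340 TPM in Con at 8 weeks, against 28384, 40086, 39814, 35496 and 48682 TPM in Con at 2 weeks. Every library at 8 weeks lay above every library at 2 weeks. The change was 0.82 on the log2 scale. It was called in a fit of these 10 libraries alone (SE 0.12, limma adjusted p = 0.0207) and not in the fit of all 62 (SE 0.31, limma adjusted p = 0.14). Its mean share was 6.69% of TPM at 8 weeks and 3.85% at 2 weeks, a difference of 2.84 points of the total. With mt-Atp8 left out of the sum, the other 12 genes made up 56.1 ± 2.12% of TPM in Con at 8 weeks and 54.4 ± 1.21% in Con at 2 weeks (SD, n = 5 each), and this smaller difference of 1.77 points had an exact permutation p of 0.143. That alternative was chosen after the values were seen. Of the other 12 genes, mt-Atp6 contributed 0.565 points and mt-Nd3, a subunit of complex I, 0.395 points, while mt-Co1, the catalytic subunit of cytochrome oxidase, ran the other way with -0.262 points. None of these 12 was called in either fit. The mean of mt-Atp8 was 38492, 24105, 47092 and 66911 TPM in Con at 2, 4, 6 and 8 weeks. At 4 weeks the libraries had 22599, 34544, 8271, 7310 and 47801 TPM, and the 2 lowest, replicates 3 and 4, are those with the low mitochondrial share described below.

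**Figure D1:**
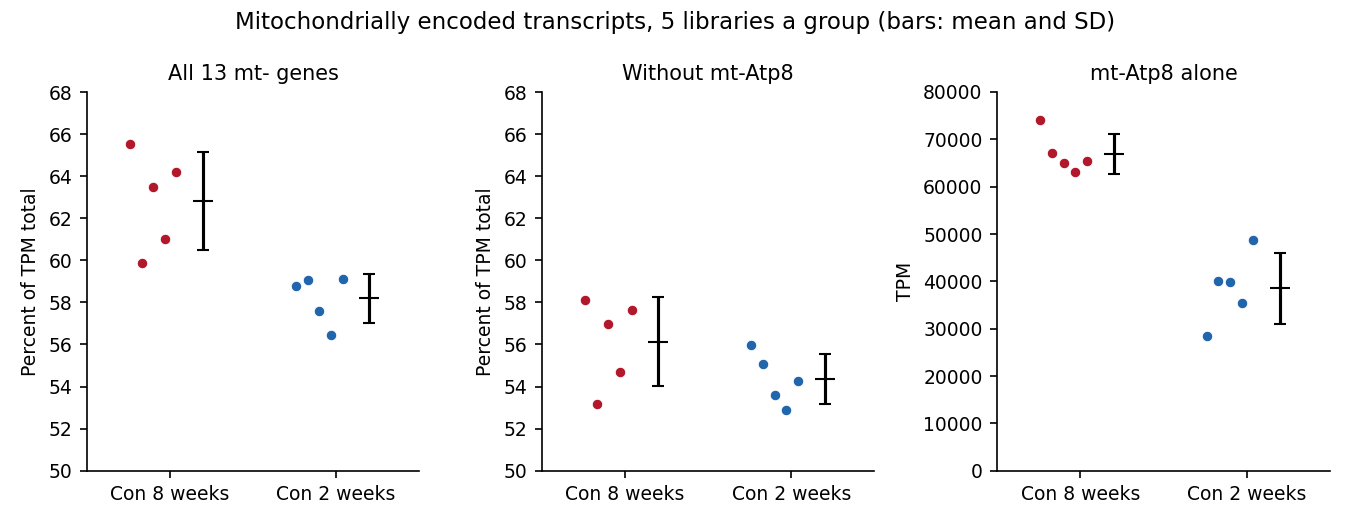
Share of TPM from all 13 mitochondrially encoded genes, the same share without mt-Atp8 (both in percent, axes not starting at 0), and mt-Atp8 itself in TPM; points are libraries, bars are group means with SD (n = 5), Con at 8 weeks left of Con at 2 weeks. Con at 8 weeks lies at 59.9 to 65.5% and Con at 2 weeks at 56.4 to 59.1% in the first panel, and the groups overlap once mt-Atp8 is left out.

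Because TPM has a fixed total, a larger mitochondrial share lowers every other gene on that scale. The median change over all genes tested was -0.11 in TPM and 0.03 after the 13 genes were removed and the rest rescaled, called mt-free TPM below. In the fit of all 62 libraries, limma called 0 genes as higher (0% of 12581) and 4 as lower (0.0318%) on TPM, with 2553 at an unadjusted p under 0.05. On mt-free TPM the same fit called 16 higher (0.127% of 12568) and 1 lower (0.00796%). The fit of the 10 libraries alone, which estimates the spread from these mice only, called 113 higher (0.898%) and 1186 lower (9.43%) on TPM. On mt-free TPM it called 209 higher (1.66%) and 38 lower (0.302%), a fit added after the data were seen. Of these, 93 higher and 38 lower genes were also called on TPM in that direction. The balance of higher and lower genes thus turned with the scale, and gene groups are given on both. Groups did not overlap for 129 higher (1.03%) and 1226 lower genes (9.74%) on TPM, and for 641 higher (5.1%) and 236 lower genes (1.88%) on mt-free TPM.

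The calls depended on single libraries. The 4 calls on TPM became 0 without each of Con at 2 weeks replicates 1 to 4 and without Con at 8 weeks replicates 1, 3 and 4, but 15 without Con at 2 weeks replicate 5, 207 without Con at 8 weeks replicate 2 and 3 without Con at 8 weeks replicate 5. The 247 calls of the 10-library fit on mt-free TPM became 0 without Con at 2 weeks replicate 2 and without Con at 8 weeks replicate 2 or 3, and lay between 4 and 221 without each other library. Every gene named below as called in that fit therefore lost its call without each of these 3 libraries.

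Base composition differed between the groups as well. A measure for each library, the median log2 deviation of the most GC-rich 20% of genes minus that of the most GC-poor 20%, was -0.131 ± 0.0391 in Con at 8 weeks (range -0.187 to -0.078) and 0.0875 ± 0.0589 in Con at 2 weeks (range 0.00528 to 0.142; SD, n = 5 each), with no overlap. Across 12167 genes the mt-free change and the GC content of the transcript had a Spearman rho of -0.351, given as a description over genes that share the same libraries. Genes that were separate and higher at 8 weeks had a median GC content of 44.1%, those separate and lower 56.8%, and all genes tested 51.0%. After a regression of each library on GC content and length, added after the data were seen, the fit of all 62 libraries called 0 genes on mt-free TPM, with 1677 at an unadjusted p under 0.05, and the 10-library fit called 4, all higher. The correction set the median change of all genes at -0.05, and corrected changes are given below beside the main examples.

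**Figure D2:**
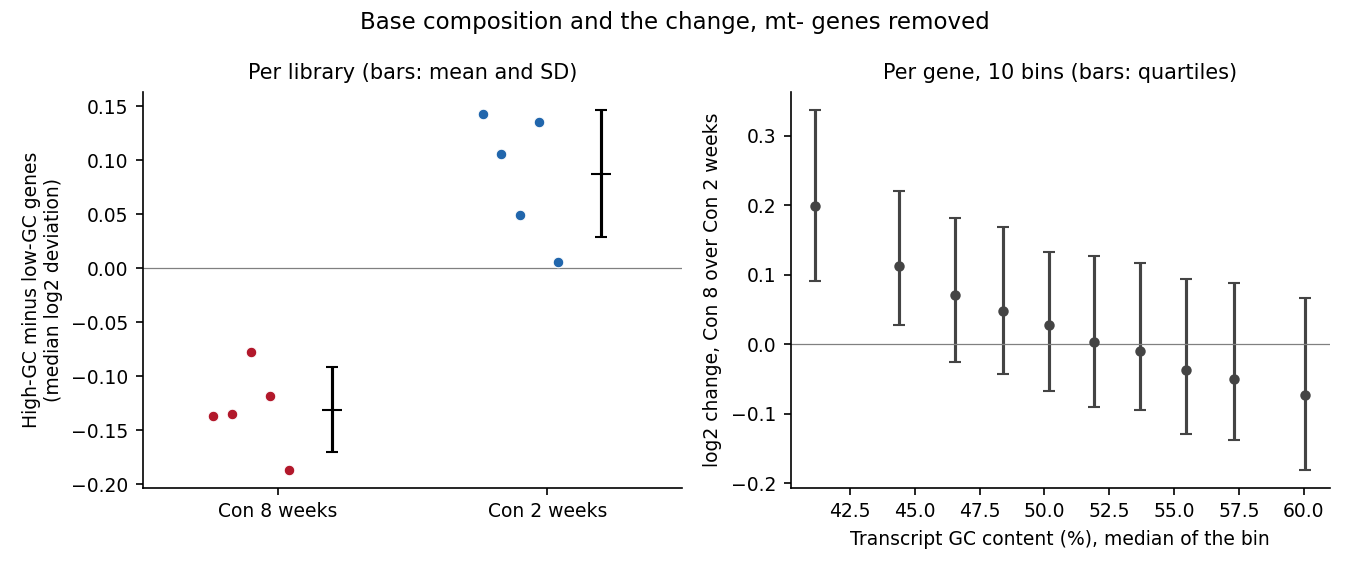
Left, the GC measure of each library (difference of median log2 deviations) for Con at 8 weeks and Con at 2 weeks, with group means and SD (n = 5); right, the median and quartiles of the mt-free log2 change in 10 bins of genes by transcript GC content. Con at 8 weeks lies below 0 and Con at 2 weeks above it, and the bin medians run from 0.20 in the most GC-poor genes to -0.07 in the most GC-rich.

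The 4 genes that fell on TPM in the fit of all 62 libraries were Tie1, Cisd3, Dhodh and Pik3r6. Tie1 (chr4:118471191-118490061, GRCm38) encodes a receptor tyrosine kinase of vessel endothelium. Its level was 8.99, 10.5, 10.3, 10.3 and 13.2 TPM in Con at 8 weeks, against 18.2, 20.5, 16.7, 18.1 and 16.7 TPM in Con at 2 weeks. The groups were well apart, and the change was -0.71 (SE 0.14, limma adjusted p = 0.0458). On mt-free TPM it was -0.58 with an adjusted p of 0.0686 over all 62 libraries and 0.0329 in the 10-library fit, and with the GC correction -0.58 with a limma adjusted p of 0.0701 in 10 libraries.

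Cisd3, an iron-sulfur protein of the mitochondrial matrix, had 114, 140, 116, 104 and 127 TPM in Con at 8 weeks, against 196, 166, 173, 179 and 162 TPM in Con at 2 weeks. Dhodh, the enzyme of pyrimidine synthesis that sits in the inner mitochondrial membrane, had 4.24, 5.52, 4.77, 4.62 and 4.22 TPM in Con at 8 weeks, against 6.62, 6.02, 6.81, 6.63 and 5.96 TPM in Con at 2 weeks. Neither gene had an overlap between the groups. Their changes were -0.54 (SE 0.11, limma adjusted p = 0.0458) for Cisd3 and -0.39 (SE 0.08, limma adjusted p = 0.0494) for Dhodh, and on mt-free TPM the adjusted p was 0.0646 for Cisd3 and 0.16 for Dhodh over all 62 libraries. Pik3r6, a regulatory subunit of phosphoinositide 3-kinase gamma, lay under the 5 TPM asked of named genes and is included because the count is small. It averaged 1.35 ± 0.218 TPM in Con at 8 weeks and 2.28 ± 0.262 TPM in Con at 2 weeks (SD, n = 5 each), and it was the 1 gene lower on mt-free TPM as well (change -0.48, SE 0.11, limma adjusted p = 0.0448). When each library was left out in turn, Tie1 and Cisd3 kept their call on TPM in 3 of 10 fits and Dhodh in 2 of 10.

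The 16 genes that rose on mt-free TPM in the fit of all 62 libraries were Cradd, C1d, Gulp1, Bmi1, Dpp4, Gatm, Cpa3, Cd209g, Maf, Man1a, Sgpp1, Cma1, Ankrd33b, Phf20l1, Pura and Fam199x, named after their values were seen. They hold mast cell proteases (Cpa3, Cma1), genes known from macrophages (Cd209g, Maf), the progenitor marker Dpp4, and chromatin proteins (Bmi1, Phf20l1). Of the 16, Cma1, Cpa3, Phf20l1, Bmi1, Pura and C1d averaged the 5 TPM asked of named genes in at least 1 group. The others lay under it in deposited TPM. The lowest adjusted p was that of Cradd, an adaptor with a death domain, at 10.6, 12.2, 11.3, 8.87 and 14.1 mt-free TPM in Con at 8 weeks, against 5.66, 8.39, 6.17, 7.05 and 7.18 in Con at 2 weeks. The groups did not overlap, and the change was 0.65 (SE 0.12, limma adjusted p = 0.0181).

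Bmi1, a subunit of Polycomb repressive complex 1, had 50.3, 48.2, 48.8, 42.8 and 56.9 mt-free TPM in Con at 8 weeks, against 25.6, 36.6, 30.6, 32.0 and 33.7 in Con at 2 weeks. Its groups were apart by more than their own spread, with a change of 0.63 (SE 0.14, limma adjusted p = 0.0448). Bmi1 transcripts are 40.6% GC, and the corrected change in 10 libraries was 0.38 with a limma adjusted p of 0.0942. Gatm, which makes the first step of creatine synthesis, had 9.67, 8.17, 8.36, 6.91 and 7.99 mt-free TPM in Con at 8 weeks, against 4.38, 4.72, 4.41, 3.94 and 5.68 in Con at 2 weeks (change 0.71, SE 0.15, limma adjusted p = 0.0448), again with no overlap. Of the 17 genes called on mt-free TPM over all 62 libraries, 14 were also called in the 10-library fit in the same direction.

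Mast cell proteases were among the higher genes. Mast cells are resident immune cells that store proteases and histamine in granules. Of 8 listed markers 6 were tested, and 2 of them, Cpa3 and Cma1, rose on mt-free TPM in both fits, with a list median of 1.22 on mt-free TPM and 0.92 on TPM, beside 0.03 and -0.11 for all genes. Of all genes, 0.127% were called higher on mt-free TPM over all 62 libraries and 1.66% in the 10-library fit. Cpa3 (chr3:20215620-20242181, GRCm38), the mast cell carboxypeptidase, had 10.2, 7.82, 19.8, 21.8 and 20.01 mt-free TPM in Con at 8 weeks, against 2.84, 3.46, 6.39, 5.26 and 7.81 in Con at 2 weeks. Cma1 (chr14:55941451-55944675, GRCm38), a chymase, had 17.2, 13.7, 26.5, 34.9 and 20.7 mt-free TPM in Con at 8 weeks, against 3.15, 5.47, 10.03, 7.25 and 8.47 in Con at 2 weeks. Replicates 1 and 2 were the lowest of both groups for both genes, and for Cpa3 the lowest library at 8 weeks lay almost level with the highest at 2 weeks. The changes were 1.43 (SE 0.32) for Cpa3 and 1.59 (SE 0.36) for Cma1, both with a limma adjusted p of 0.0448.

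The other tested mast cell markers were not called. Mcpt4, another chymase, had 12.8, 13, 28.8, 44.0 and 32.7 mt-free TPM in Con at 8 weeks, against 3.94, 6.78, 11.6, 8.45 and 11.2 in Con at 2 weeks, with no overlap and a limma adjusted p of 0.0846. Tpsb2, a tryptase, had a change of 1.01 (SE 0.35, limma adjusted p = 0.177) on mt-free TPM. Kit, the receptor that mast cells need to survive and that other cells also carry, ran the other way at 13.8 ± 5.62 mt-free TPM in Con at 8 weeks and 21.3 ± 11.7 in Con at 2 weeks (SD, n = 5 each), with a limma adjusted p of 0.565. The 8 markers summed to 58.7 to 141 mt-free TPM in Con at 8 weeks and 42.8 to 55.4 in Con at 2 weeks. On TPM the sums overlapped, at 21.4 to 54.8 in Con at 8 weeks and 18.6 to 22.8 in Con at 2 weeks. Of the 6 tested markers, 3 were separate and higher on mt-free TPM and 1 on TPM, beside 5.1% and 1.03% of all genes. With the GC correction the 10-library changes were 1.21 for Cpa3 and 1.51 for Cma1, with limma adjusted p of 0.116 and 0.0755, so neither stayed called.

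The promoters of the 3 proteases are shown because these genes moved side by side, each running from 250 bases before to 50 bases after the start (RefSeq, GRCm38.p6, minus strand, 5′ to 3′). Capitals mark matches to GATAA on either strand (TTATC on the other), the letters that GATA factors bind and that mast cells are known to use. They lie at chr3:20242132-20242431 for Cpa3, chr14:55944626-55944925 for Cma1 and chr14:56062261-56062560 for Mcpt4. Of 32851 promoters of the same length, 25.4% hold such a match.
Cpa3: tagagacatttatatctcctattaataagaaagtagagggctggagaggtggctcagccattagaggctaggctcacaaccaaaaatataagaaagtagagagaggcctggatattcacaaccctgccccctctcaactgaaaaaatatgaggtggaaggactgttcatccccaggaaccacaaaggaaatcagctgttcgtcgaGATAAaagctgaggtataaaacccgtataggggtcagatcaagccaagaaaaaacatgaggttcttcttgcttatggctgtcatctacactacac
Cma1: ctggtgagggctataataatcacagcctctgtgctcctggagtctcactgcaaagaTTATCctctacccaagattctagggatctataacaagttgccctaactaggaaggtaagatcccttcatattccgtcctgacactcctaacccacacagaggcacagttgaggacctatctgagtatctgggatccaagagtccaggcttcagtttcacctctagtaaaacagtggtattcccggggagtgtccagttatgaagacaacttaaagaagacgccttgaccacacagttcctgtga
Mcpt4: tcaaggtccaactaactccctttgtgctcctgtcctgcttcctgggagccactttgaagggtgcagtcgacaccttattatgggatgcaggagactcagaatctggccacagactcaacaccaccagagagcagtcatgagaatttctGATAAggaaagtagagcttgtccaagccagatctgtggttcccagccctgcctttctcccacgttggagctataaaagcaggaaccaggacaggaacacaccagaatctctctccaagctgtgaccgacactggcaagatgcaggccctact
Each window holds 1 match. For the tryptase Tpsb2 no window was available. A match describes these letters and shows no binding.

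Some macrophage genes were higher at 8 weeks in the 10-library fit. Of 14 markers 13 were tested, 12 had a positive change on mt-free TPM with a median of 0.53, and 4 rose there: Cd68, C1qc, Lyz2 and Fcgr3. On TPM the median was 0.33 and 5 rose, the same 4 and C1qa. Of all genes, 7221 of 12568 had a positive mt-free change, and the fit called 1.66% higher on mt-free TPM and 0.898% on TPM. None was called over all 62 libraries. Cd68, a lysosomal protein of macrophages, had 5.15, 5.46, 5.91, 5.03 and 5.17 TPM in Con at 8 weeks, against 4.07, 3.28, 3.70, 3.53 and 4.37 TPM in Con at 2 weeks. The groups were apart on TPM and on mt-free TPM, where the change was 0.62 (SE 0.09, limma adjusted p = 0.03 in 10 libraries and 0.211 over all 62). Lyz2, lysozyme, averaged 61.2 ± 6.08 TPM in Con at 8 weeks and 43.6 ± 4.12 TPM in Con at 2 weeks (SD, n = 5 each), without overlap. Csf1r, the receptor for the growth factor that macrophages depend on, was not called in either fit (mt-free change 0.35, SE 0.18, limma adjusted p = 0.38 over all 62). The 14 markers summed to 140 to 179 TPM in Con at 8 weeks and 103 to 147 TPM in Con at 2 weeks.

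Other genes known from tissue macrophages were picked after their values were seen, as the highest changes among called genes whose groups did not overlap. Fcna, a lectin of the ficolin family, had 18.8, 17.9, 14.2, 13.3 and 17.5 mt-free TPM in Con at 8 weeks, against 4.93, 3.74, 5.54, 4.48 and 10.1 in Con at 2 weeks. Retnla, a secreted protein made by alternatively activated macrophages, had 329, 240, 203, 224 and 248 mt-free TPM in Con at 8 weeks, against 71.0, 73.0, 158, 62.4 and 134 in Con at 2 weeks. All libraries at 8 weeks were above all at 2 weeks for both genes, as the way they were picked required. The 10-library changes were 1.41 (SE 0.21, limma adjusted p = 0.0292) for Fcna and 1.39 (SE 0.26, limma adjusted p = 0.0329) for Retnla. The chemokine Ccl6 behaved alike, with 27.5 ± 7.33 mt-free TPM in Con at 8 weeks and 10.6 ± 3.68 in Con at 2 weeks (SD, n = 5 each). Fcna transcripts are 55.5% GC, above the median of all genes, and its GC-corrected change was 1.39 (limma adjusted p = 0.0701 in 10 libraries).

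**Figure D3:**
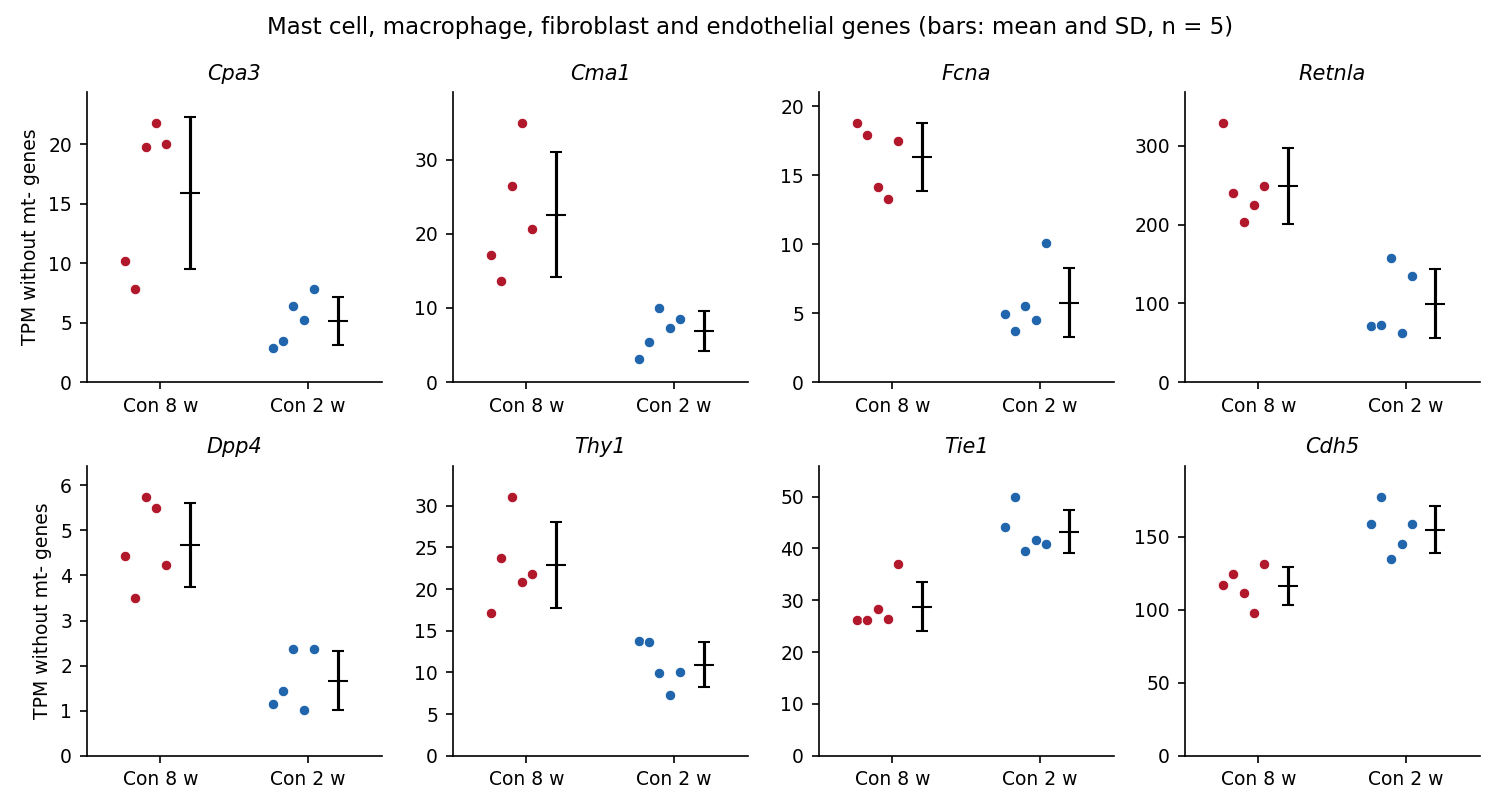
Mt-free TPM of 8 genes in each library, Con at 8 weeks left of Con at 2 weeks, with group means and SD (n = 5); Cpa3 and Cma1 are mast cell proteases, Fcna and Retnla are known from macrophages, Dpp4 and Thy1 mark progenitors and fibroblasts, and Tie1 and Cdh5 mark endothelium. The first 6 genes are higher at 8 weeks and the last 2 are lower. The groups do not overlap in any panel, but the panels were chosen with the values known, and Fcna and Retnla for that lack of overlap.

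Some fibroblast and progenitor genes were also higher. The layer of Dpp4-positive and Pi16-positive progenitors is known as a source of new adipocytes. All 15 listed genes were tested, 14 had a positive mt-free change with a median of 0.58, and 8 had groups that did not overlap on that scale. On TPM 13 had a positive change with a median of 0.38, and 4 were separate and higher, beside 1.03% of all genes. Dpp4 rose in the fit of all 62 libraries, and Dpp4, Pi16, Thy1, Dpt and Cd55 rose in the 10-library fit, on TPM as well as on mt-free TPM. Among all genes on mt-free TPM, 5.1% were separate and higher and the 10-library fit called 1.66% higher. Dpp4 (chr2:62330073-62412231, GRCm38), a membrane peptidase, had 4.43, 3.499, 5.75, 5.5 and 4.23 mt-free TPM in Con at 8 weeks, against 1.15, 1.43, 2.36, 1.02 and 2.38 in Con at 2 weeks. Its groups did not overlap, with a change of 1.11 (SE 0.24, limma adjusted p = 0.0448) and a GC-corrected change of 0.92 (limma adjusted p = 0.0701 in 10 libraries). In deposited TPM Dpp4 was low, at 1.74 ± 0.354 in Con at 8 weeks and 0.695 ± 0.271 in Con at 2 weeks (SD, n = 5 each). On that scale the change was 0.70 (SE 0.19, limma adjusted p = 0.0686 over all 62 libraries). Dpt, dermatopontin of the matrix, had 119, 145, 177, 168 and 148 mt-free TPM in Con at 8 weeks, against 85.1, 95.5, 109, 70.8 and 87.0 in Con at 2 weeks. Its change was 0.75 (SE 0.13, limma adjusted p = 0.0315 in 10 libraries and 0.0962 over all 62). Thy1, a surface protein of fibroblasts and also of T cells, averaged 22.9 ± 5.16 mt-free TPM in Con at 8 weeks and 10.9 ± 2.73 in Con at 2 weeks (SD, n = 5 each), while the T cell genes proper were near 0.

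Matrix genes ran in both directions. Of 29 listed extracellular matrix genes, Timp2 and Loxl1 rose and Col4a1 and Col4a2 fell in the 10-library fit on mt-free TPM, and none was called over all 62. That fit called 1.66% of all genes higher and 0.302% lower. Timp2, an inhibitor of matrix metalloproteases, had 59.5, 65.9, 94.0, 76.7 and 69.6 mt-free TPM in Con at 8 weeks, against 27.8, 41.6, 47.5, 29.9 and 46.0 in Con at 2 weeks (change 0.92, SE 0.17, limma adjusted p = 0.0329). The 2 chains of type IV collagen of basement membranes were lower in every library at 8 weeks: Col4a1 had 179, 213, 214, 191 and 196 mt-free TPM in Con at 8 weeks, against 251, 260, 232, 235 and 248 in Con at 2 weeks. The 10-library changes were -0.30 (SE 0.06, limma adjusted p = 0.0341) for Col4a1 and -0.36 (SE 0.06, limma adjusted p = 0.0315) for Col4a2. Hspg2, the basement membrane proteoglycan perlecan, chosen after its values were seen, averaged 55.4 ± 2.54 mt-free TPM in Con at 8 weeks and 75.1 ± 5.89 in Con at 2 weeks (SD, n = 5 each; change -0.43, SE 0.06, limma adjusted p = 0.0292). Col1a1, the main chain of fibrillar collagen, had a change of -0.08 on mt-free TPM with a 95% interval of -0.92 to 0.75.

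Endothelial genes were lower at 8 weeks. Of 13 tested markers of blood vessel endothelium, 12 had a negative change on both scales, and the median was -0.50 on TPM and -0.35 on mt-free TPM. Tie1 fell in the fit of all 62 libraries on TPM and in the 10-library fit on both scales, and Cdh5, Kdr, Tek, Egfl7 and Esam fell in the 10-library fit on TPM only, where 9.43% of all genes were called lower. The markers summed to 208 to 292 TPM in Con at 8 weeks and 320 to 368 TPM in Con at 2 weeks, and on mt-free TPM to 589 to 736 in Con at 8 weeks and 754 to 898 in Con at 2 weeks, with no overlap on either scale. Cdh5, the cadherin of endothelial junctions, had 40.3, 49.9, 40.6, 38.1 and 47.0 TPM in Con at 8 weeks, against 65.4, 72.6, 57.1, 63.1 and 64.8 TPM in Con at 2 weeks. Its change was -0.57 on TPM (SE 0.09, limma adjusted p = 0.0207 in 10 libraries and 0.0571 over all 62) and -0.41 on mt-free TPM (limma adjusted p = 0.0515 in 10 libraries).

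The angiopoietin receptor Tek had 10.4, 13.2, 12.3, 10.5 and 12.8 TPM in Con at 8 weeks, against 14.96, 17.4, 17.4, 19.96 and 18.1 TPM in Con at 2 weeks, and the VEGF receptor Kdr averaged 28.2 ± 3.79 TPM in Con at 8 weeks and 39.1 ± 1.83 TPM in Con at 2 weeks (SD, n = 5 each). Neither overlapped between the groups, on a scale where 9.74% of all genes were separate and lower. Plvap, the protein of the diaphragms of fenestrated capillaries, was the exception, with a change of 0.18 on TPM (SE 0.27, limma adjusted p = 0.725). The endothelial list had a median GC content of 54.1%, above the 51.0% of all genes. Its GC-corrected median change was -0.39, beside -0.05 for all genes. The GC content of Tek transcripts is 47.1%, under the median of all genes, and the GC-corrected change of Tek was -0.50 (limma adjusted p = 0.0701 in 10 libraries). Of 11 tested pericyte and smooth muscle genes, Pdgfrb, Rgs5, Cspg4 and Notch3 fell on TPM in the 10-library fit, against 9.43% of all genes, and 4 had a positive change. Of these Pdgfrb, the receptor by which pericytes are drawn to vessels, fell on mt-free TPM too, at 29.2 ± 2.61 in Con at 8 weeks and 36.5 ± 1.58 in Con at 2 weeks (SD, n = 5 each; change -0.32, SE 0.07, limma adjusted p = 0.0437). The median of that list was -0.14 on TPM, beside -0.11 for all genes, and 0.01 on mt-free TPM. Among 4 tested lymphatic genes, Pdpn rose in the 10-library fit on both scales (mt-free change 1.07, SE 0.22, limma adjusted p = 0.0437); it is also carried by fibroblasts.

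The promoter of Tie1 is shown as that of the vessel gene called over all 62 libraries (RefSeq, GRCm38.p6, chr4:118489800-118490099, minus strand, 5′ to 3′). Capitals mark the letters AGGAAG on either strand (CTTCCT on the other), bound by ETS factors, which endothelial genes are known to need. Of 32851 promoters, 35.4% hold such a match.
Tie1: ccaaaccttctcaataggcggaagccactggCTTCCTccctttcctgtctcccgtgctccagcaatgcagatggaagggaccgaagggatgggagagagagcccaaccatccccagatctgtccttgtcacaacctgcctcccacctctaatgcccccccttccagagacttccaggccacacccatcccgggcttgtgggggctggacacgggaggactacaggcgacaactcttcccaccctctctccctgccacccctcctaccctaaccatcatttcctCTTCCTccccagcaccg
Tie1 holds 2 matches, the windows of Tek and Kdr hold 0, and 3 windows of Egfl7 hold 3, 2 and 0. For Cdh5 and Esam no window was available, so they could not be searched.

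No gene of the heat-making program passed the test over all 62 libraries, where few genes of any kind did. That fit called 0.0318% of all genes lower and 0% higher on TPM, so the absence does not set this program apart. Of 18 thermogenic genes 14 had a positive change on mt-free TPM and 9 on TPM, and the list median was -0.05 on TPM and 0.11 on mt-free TPM. Ucp1 had 4424, 5555, 4796, 4864 and 5671 TPM in Con at 8 weeks, against 2460, 5456, 4614, 4431 and 5190 TPM in Con at 2 weeks. The groups overlapped, with replicate 1 of Con at 2 weeks far under the others. The change was 0.24 (SE 0.27, limma adjusted p = 0.632), with a 95% interval of -0.31 to 0.79. Dio2, the deiodinase that makes active thyroid hormone inside brown fat, had 41.9, 21.7, 41.8, 96.0 and 140 TPM in Con at 8 weeks, against 5.80, 23.0, 37.5, 33.7 and 61.2 TPM in Con at 2 weeks. The highest libraries were at 8 weeks and the lowest at 2 weeks, with wide overlap between (change 1.08, SE 0.65, limma adjusted p = 0.335).

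Ppargc1a, the coactivator that drives mitochondrial genes, had a change of 0.52 (95% interval -0.46 to 1.49) and Cidea, a lipid droplet protein of brown adipocytes, one of -0.14 on TPM (95% interval -0.38 to 0.09) and 0.03 on mt-free TPM, where its sign turned. Adrb3, the beta-adrenergic receptor of adipocytes, averaged 102 ± 40.2 TPM in Con at 8 weeks and 135 ± 45.4 TPM in Con at 2 weeks (SD, n = 5 each), with a 95% interval of -1.16 to 0.28 for the change. Ppargc1b was the 1 thermogenic gene of 18 that fell in the 10-library fit on TPM (change -0.43, SE 0.12, limma adjusted p = 0.0498), and on mt-free TPM it did not pass the test (limma adjusted p = 0.225). That fit called 9.43% of all genes lower on TPM. The adipocyte genes Adipoq and Lep, which encode the hormones adiponectin and leptin, were not called. Lep had 13.7, 7.96, 8.06, 10.7 and 7.02 TPM in Con at 8 weeks, against 55.2, 26.4, 17.7, 9.55 and 10.3 TPM in Con at 2 weeks, with the 2 highest values in replicates 1 and 2 of Con at 2 weeks.

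Genes of fatty acid and triglyceride synthesis leaned lower. Brown fat makes fatty acids from glucose as well as burning them. Of 24 genes, all tested, 22 had a negative change on TPM and 19 on mt-free TPM, with medians of -0.40 and -0.26. Of all genes, 3560 of 12581 had a positive change on TPM and 7221 of 12568 on mt-free TPM, so most genes were negative on TPM. On TPM, Fasn, Scd1, Scd2, Srebf1 and Slc25a1 fell in the 10-library fit, against 9.43% of all genes, and none was called on mt-free TPM or over all 62 libraries. Scd1, the desaturase that makes oleate, had 4403, 4408, 4726, 2967 and 3922 TPM in Con at 8 weeks, against 11394, 9711, 7042, 4496 and 7149 TPM in Con at 2 weeks. Its lowest library at 2 weeks lay within the range of 8 weeks (change -0.91, SE 0.23, limma adjusted p = 0.036 in 10 libraries and 0.0851 over all 62). Fasn, fatty acid synthase, had 3543, 3996, 3749, 3048 and 2322 TPM in Con at 8 weeks, against 5314, 4550, 4780, 4647 and 4526 TPM in Con at 2 weeks, with no overlap. Srebf1, which encodes the transcription factor that drives these enzymes, also had no overlap, at 68.4 ± 11.7 TPM in Con at 8 weeks and 113 ± 25.4 TPM in Con at 2 weeks (SD, n = 5 each). On mt-free TPM the limma adjusted p in 10 libraries was 0.157 for Fasn, 0.144 for Scd1 and 0.0895 for Srebf1. The 21 genes of cholesterol synthesis had medians of -0.29 on TPM and -0.14 on mt-free TPM, and 0 were called in either fit.

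Nuclear genes for mitochondrial proteins were lower on TPM, and nearly all of those calls went when the mitochondrially encoded genes were left out of the total. Of 34 nuclear genes of the respiratory chain, 21 fell on TPM in the 10-library fit, against 9.43% of all genes, and 1, Ndufv1, on mt-free TPM. The medians were -0.24 and -0.07. Ndufv1, the subunit of complex I that binds NADH, had 432, 525, 449, 461 and 447 TPM in Con at 8 weeks, against 615, 568, 622, 606 and 584 TPM in Con at 2 weeks. Its groups were apart, and its mt-free change was -0.20 (SE 0.04, limma adjusted p = 0.0466 in 10 libraries). For 21 genes of the tricarboxylic acid cycle 14 calls on TPM became 0, for 24 of the mitochondrial ribosome 12 became 0, and for 21 of fatty acid oxidation 6 became 0. A smaller lean to lower values stayed. On mt-free TPM, groups were separate and lower for 5 of 34 respiratory chain, 3 of 21 cycle and 3 of 24 ribosome genes. For fatty acid oxidation it was 1 of 21, and for all genes 1.88%. Positive mt-free changes were held by 9 of 34, 6 of 21, 5 of 24 and 10 of 21 in that order, and by 7221 of 12568 of all genes. Cs, citrate synthase, shows the size of the shift: 890 ± 52.4 TPM in Con at 8 weeks and 1173 ± 99.9 TPM in Con at 2 weeks, but 2395 ± 73.5 mt-free TPM in Con at 8 weeks and 2810 ± 270 in Con at 2 weeks (SD, n = 5 each). Its limma adjusted p in 10 libraries was 0.0211 on TPM and 0.102 on mt-free TPM, where its groups still did not overlap.

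Lipolysis genes lost their calls in the same way. Pnpla2, the lipase that starts triglyceride breakdown, had 1008, 1127, 913, 971 and 1078 TPM in Con at 8 weeks, against 1251, 1216, 1237, 1433 and 1224 TPM in Con at 2 weeks. It fell in the 10-library fit on TPM (change -0.32, SE 0.07, limma adjusted p = 0.0283), and on mt-free TPM, where the groups overlapped, the change was -0.15 (limma adjusted p = 0.234). Of 15 genes of lipolysis and the lipid droplet 5 fell on TPM in the 10-library fit, against 9.43% of all genes, and 0 on mt-free TPM. Of 27 proteasome genes 6 fell on TPM and 0 on mt-free TPM, and the 28 genes of the cytosolic ribosome had 0 on both scales.

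**Figure D4:**
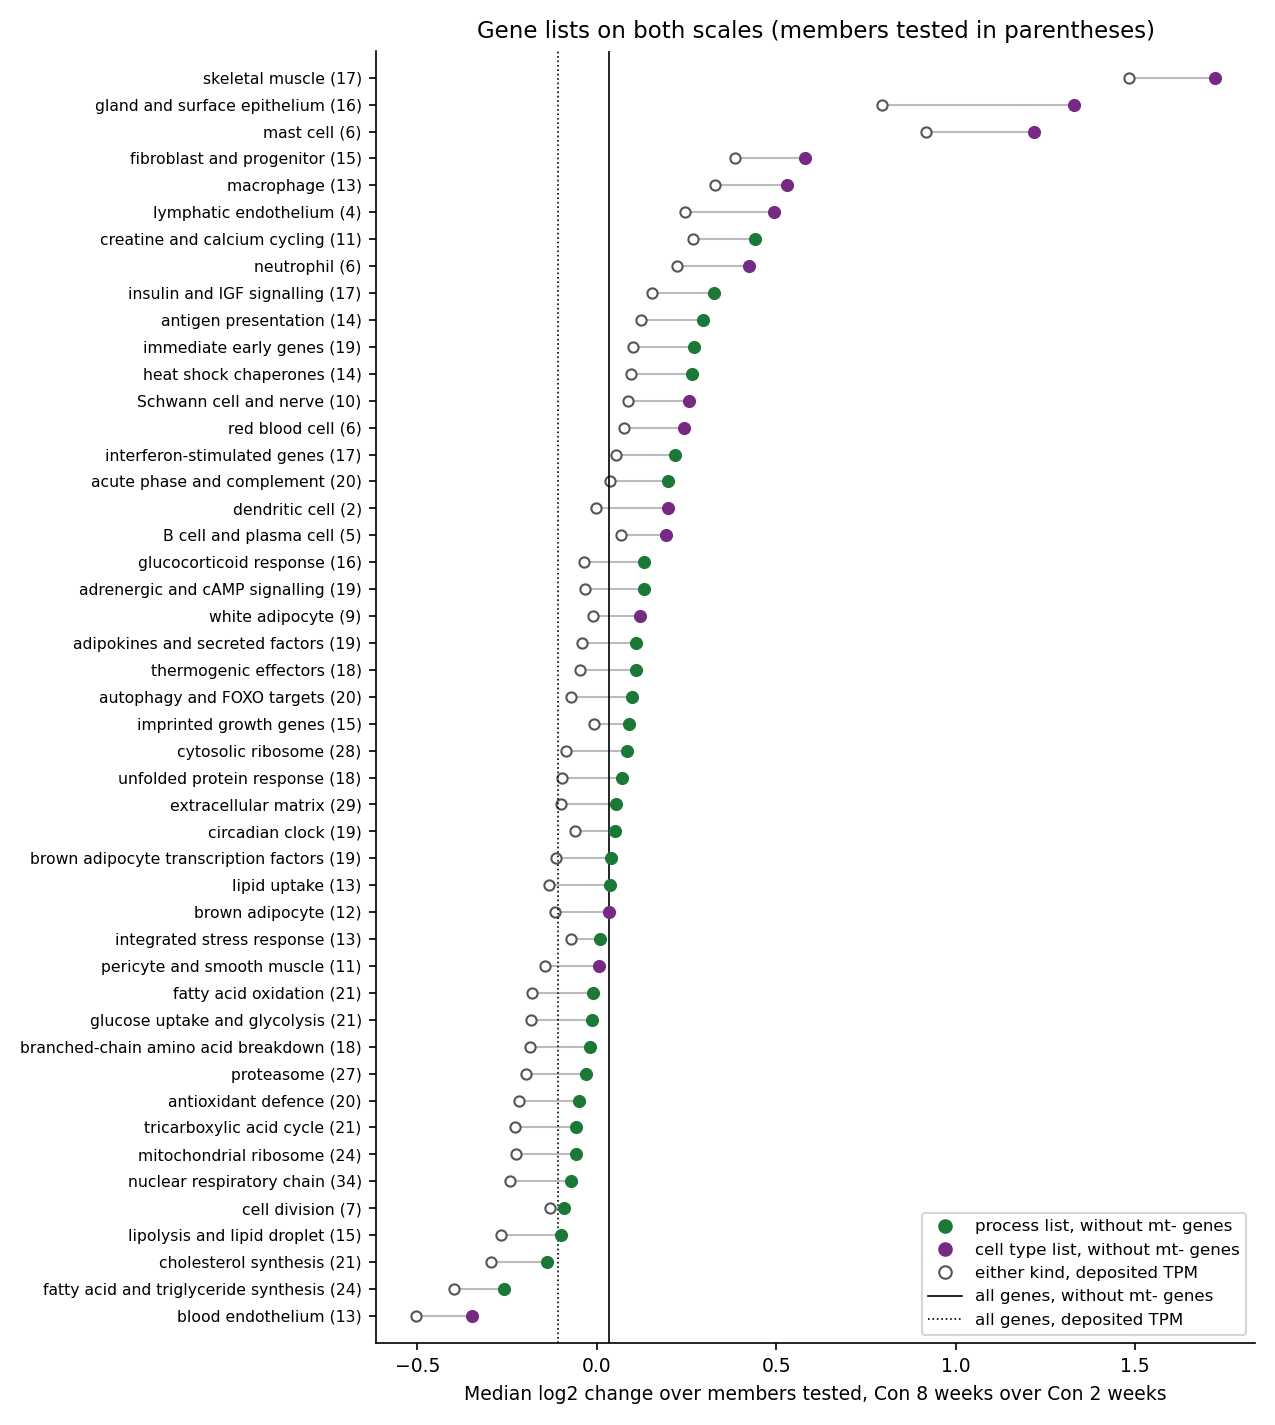
Median log2 change, Con at 8 weeks minus Con at 2 weeks, of the tested members of each gene list; filled points are on mt-free TPM, open points on TPM, and vertical lines mark the medians of all genes (0.03 and -0.11). Skeletal muscle, gland epithelium and mast cell lists lie furthest right, and blood endothelium and fatty acid synthesis furthest left.

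Signs of neighbouring tissue varied widely between libraries. All 17 skeletal muscle genes had positive changes, with a median of 1.72 on mt-free TPM, yet none was called. They summed to 1068, 996, 2074, 8579 and 1209 TPM in Con at 8 weeks, against 129, 898, 710, 2660 and 615 TPM in Con at 2 weeks, so replicate 4 of each group held most and the groups overlapped. All 16 tested genes of gland and surface epithelium had positive changes as well, with a median of 1.33 and none called. Their sums were 22.6 to 159 TPM in Con at 8 weeks and 1.85 to 82.7 TPM in Con at 2 weeks. The part of these tissues in the results above was not tested. In Con at 8 weeks the TPM of Cpa3 and of Cma1 stood in the same order over the 5 libraries as the muscle sum, and in Con at 2 weeks in another order.

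Blood genes gave 1 call. Hba-a2, an alpha-globin gene, had 619, 614, 575, 302 and 382 TPM in Con at 8 weeks, against 50.6, 45.5, 325, 44.3 and 51.6 TPM in Con at 2 weeks, while its near-identical copy Hba-a1 had 211 to 863 TPM in Con at 8 weeks and 495 to 937 TPM in Con at 2 weeks. In replicate 3 of Con at 2 weeks Hba-a2 was high and Hba-a1 was the lowest of its group. The split of reads between the copies is uncertain, and the call of Hba-a2 in the 10-library fit (limma adjusted p = 0.0329 on mt-free TPM) is given with that limit. The beta-globin gene Hbb-bs averaged 983 ± 399 TPM in Con at 8 weeks and 831 ± 84.9 TPM in Con at 2 weeks (SD, n = 5 each) and was not called.

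Growth factor signalling held some of the higher genes. Of 17 genes of insulin and IGF signalling 16 had a positive mt-free change with a median of 0.33, and Igfbp6 and Irs1 rose in the 10-library fit. Of all genes, 7221 of 12568 had a positive mt-free change and 1.66% were called higher. Igfbp6, a binding protein for insulin-like growth factor 2, had 60.8, 62.7, 71.9, 49.6 and 64.2 mt-free TPM in Con at 8 weeks, against 38.2, 31.9, 33.4, 30.4 and 34.9 in Con at 2 weeks. The groups were well apart, and it shared the lowest adjusted p of that fit with Ifi202b and Arhgap5 (change 0.85, SE 0.10, limma adjusted p = 0.0159), with a GC content of 60.7% and a GC-corrected change of 0.84 (limma adjusted p = 0.0472). Over all 62 libraries its limma adjusted p was 0.146. Irs1, the docking protein of the insulin receptor, averaged 38.6 ± 2.83 mt-free TPM in Con at 8 weeks and 27.6 ± 2.84 in Con at 2 weeks (SD, n = 5 each). Igf1 itself was not called (mt-free change 0.53, SE 0.24, limma adjusted p = 0.306).

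Other lists gave few calls. On mt-free TPM the 10-library fit called 1.66% of all genes higher and 0.302% lower, and the fit of all 62 libraries 0.127% and 0.00796%. At such shares lists of this size hold few calls or none, so a 0 below is no sign that a program stayed unchanged. Xbp1, a transcription factor of the unfolded protein response, rose in the 10-library fit on mt-free TPM (change 0.33, SE 0.06, limma adjusted p = 0.0359), alone among 18 genes of that response. Apod, a lipid-binding secreted protein, rose among 19 adipokines and secreted factors, at 22.4 ± 5.15 mt-free TPM in Con at 8 weeks and 10.98 ± 2.41 in Con at 2 weeks (SD, n = 5 each). On mt-free TPM 0 genes were called in either fit for the circadian clock, the glucocorticoid response, immediate early genes, heat shock chaperones, interferon-stimulated genes, antigen presentation, the imprinted growth genes and cell division, of whose 30 genes 7 reached the filter. The same held for markers of neutrophils, B cells and plasma cells, dendritic cells, Schwann cells and white adipocytes. Fkbp5, a gene induced by glucocorticoids, had 1.13, 1.44, 1.76, 3.66 and 6.26 TPM in Con at 8 weeks, against 2.14, 1.42, 1.25, 1.89 and 7.33 TPM in Con at 2 weeks, with a single high library at 2 weeks and overlapping groups. Among called genes that fell in the 10-library fit, Tapbpl, which edits peptides on class I molecules, was the lowest by change, at 31.8 ± 3.83 mt-free TPM in Con at 8 weeks and 53.0 ± 11.97 in Con at 2 weeks (SD, n = 5 each; change -0.70, SE 0.14, limma adjusted p = 0.0423), chosen after its values were seen.

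The libraries of 4 and 6 weeks show where between the end points the levels lay. They are compared with the same Con libraries of 2 weeks, so the changes from 2 to 6 and from 2 to 8 weeks share those libraries and are given side by side. Con at 6 against 2 weeks had 246 calls on TPM (1.96%) and 269 on mt-free TPM (2.14%) over all 62 libraries. The count on TPM was 8 without replicate 1 of Con at 2 weeks, and 40, 47, 61, 94 and 98 without replicates 1 and 5 of Con at 6 weeks and replicates 2, 3 and 4 of Con at 2 weeks, in that order. Cpa3 had a median of 5.26, 14.0, 21.0 and 19.8 mt-free TPM at 2, 4, 6 and 8 weeks, and Cma1 one of 7.25, 22.1, 31.2 and 20.7. Both were thus already higher at 4 weeks than at 2 weeks by their medians, and neither was highest at 8 weeks. The change from 2 to 6 weeks was 1.98 (SE 0.32, limma adjusted p = 0.000921) for Cpa3 and 2.15 (SE 0.36, limma adjusted p = 0.0013) for Cma1.

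Dpp4 had medians of 1.43, 3.55, 4.55 and 4.43 mt-free TPM at 2, 4, 6 and 8 weeks, and Retnla of 73.0, 198, 283 and 240. Macrophage sums were widest at 6 weeks, from 129 to 428 TPM. Scd1 had medians of 17493, 10467, 6740 and 10983 mt-free TPM at 2, 4, 6 and 8 weeks, so it was lowest at 6 weeks, where its change from 2 weeks was -1.59 (SE 0.29, limma adjusted p = 0.00652). Tie1 had 41.6, 36.4, 33.4 and 26.3, in order of time, and its change from 2 to 6 weeks was -0.42 (SE 0.15, limma adjusted p = 0.11). Replicates 3 and 4 of Con at 4 weeks stood apart, with 39.6 and 39.7% of TPM from mitochondrially encoded genes against 57.1 to 58.7% in the others of that group. They enter the comparison of 8 with 2 weeks only through the pooled spread, and without them the fit called 675 genes on TPM and 62 on mt-free TPM.

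**Figure D5:**
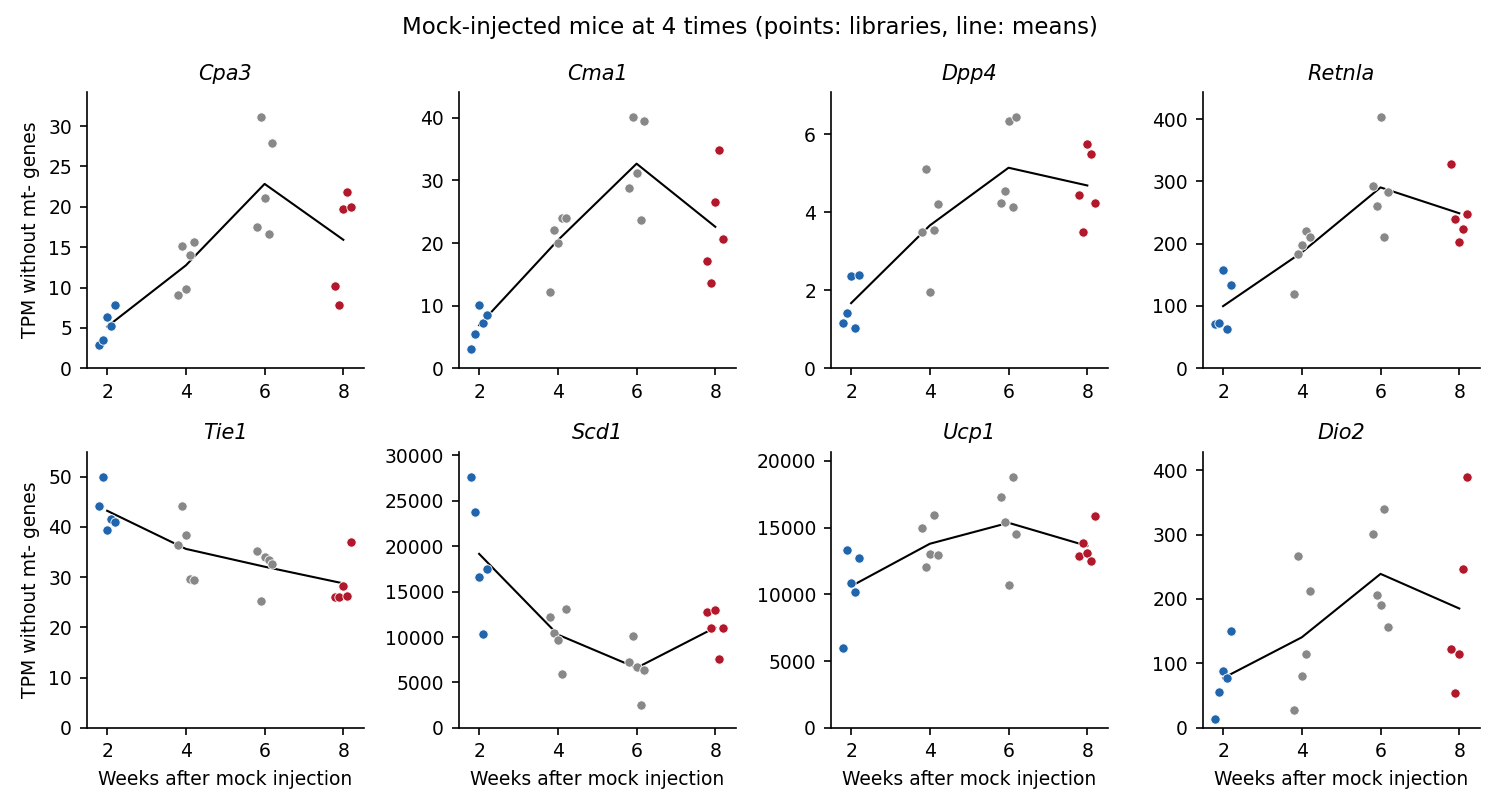
Mt-free TPM of 8 genes in the Con libraries at 2, 4, 6 and 8 weeks; points are libraries and lines join group means (n = 5). By their means Cpa3, Cma1, Dpp4 and Retnla are lowest at 2 weeks, and Scd1 and Tie1 are highest there. Ucp1 overlaps between all times. Dio2 lies at 157 to 340 at 6 weeks and at 14.1 to 150 at 2 weeks, without overlap, and its other pairs of times overlap. That change of Dio2 was not called (1.9, SE 0.65, limma adjusted p = 0.101 over all 62 libraries).

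In mice with non-cachectic tumours the same weeks gave 0 calls in limma over all 62 libraries on TPM (0%, 492 at an unadjusted p under 0.05) and 0 on mt-free TPM. The mitochondrial share was 59.8 ± 2.33% in NCAC at 8 weeks and 58.5 ± 1.78% in NCAC at 2 weeks (SD, n = 5 each), a difference of 1.27 points with an exact permutation p of 0.341. The test of the difference between the changes, Con minus NCAC, called 0 genes on TPM (0%, 494 at an unadjusted p under 0.05, lowest limma adjusted p 0.914) and 0 on mt-free TPM (527 at an unadjusted p under 0.05), so no gene was shown to change otherwise in Con than in NCAC. Cpa3 had medians of 10.3 mt-free TPM in NCAC at 8 weeks and 13.8 in NCAC at 2 weeks. Its change of 1.43 in Con and -0.37 in NCAC differed by 1.80 (SE 0.45), with a limma adjusted p of 0.999 over all genes. Mean TPM of Tie1 was 18.1 and 10.7 in Con at 2 and 8 weeks, and 12.4 and 11.2 in NCAC at those times. In the same order it was 0.695, 1.74, 1.74 and 1.68 for Dpp4, and 41.7, 92.0, 113 and 71.9 for Retnla. In these genes, picked for their change in Con, NCAC at 2 weeks lay nearer Con at 8 weeks than Con at 2 weeks. Lep, which was not called, ran otherwise with 23.8, 9.48, 33.8 and 9.83. The reason was not tested. The medians of the mast cell, macrophage and fibroblast lists on mt-free TPM were 1.22, 0.53 and 0.58 in Con, and -0.34, -0.26 and -0.11 in NCAC. For the endothelial list the median was -0.35 in Con and 0.10 in NCAC. The GC measure was -0.0889 ± 0.109 in NCAC at 8 weeks and 0.00987 ± 0.0609 in NCAC at 2 weeks (SD, n = 5 each), and its part in these values was not tested.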

How the data were processed

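RNA of mouse brown fat was sequenced with a TruSeq stranded mRNA kit on an Illumina NovaSeq 6000, per the labels. The deposited file holds TPM computed by the authors for 47643 gene symbols and 62 libraries of 12 groups, and the build is mm10 per the submitters' processing notes. The aligner, annotation and counting are not given in the sources used here. TPM keeps no counts, so depth and counting error are unknown. Columns were assigned by library title and groups by the sample descriptions. The extraction text mentions another tumour model and time.

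Group means of log2(TPM + 1) were fitted with limma 3.58.1 (R 4.3.3, trended empirical Bayes) to all 62 libraries, after a filter of at least 1 TPM in at least 5 libraries, with Benjamini-Hochberg adjustment over all genes tested. The scale understates changes of genes with low values. Mt-free TPM leaves out the 13 symbols starting with mt- that were above 0 and rescales the rest to the same total. p-values over libraries measure the spread between these libraries. Shares were compared with exact permutation tests over 252 divisions, 2-sided. Intervals are 95% intervals of the fit of all 62 libraries. The script was tested on simulated data.

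The rule for named genes took up to 15 called genes a direction, by size of change, that averaged 5 TPM or more in one group, then called members of 49 gene lists (33 of processes, 16 of cell types, 836 genes, 747 tested), 12 fixed genes and the mitochondrially encoded genes; Mki67 of the 12 did not reach the filter. The members and the lists were chosen with earlier results of these data known. Alternatives were other scalings, pseudocounts, filters, fits of the groups compared alone, library weights, a replicate block and leaving out libraries. Genes outside the rule were named after their values were seen, chiefly by the same ranking in the 10-library fit on mt-free TPM. Added after seeing the data were the 10-library fit on mt-free TPM and with other scaling, the fits without 2 Con libraries of 4 weeks, the correction for GC content and length, and the share without mt-Atp8. GC content was available for 96.8% of genes. Positions and the mt-Atp8 transcript are from GENCODE for GRCm38, promoters from RefSeq. Plots were made in Python 3.11.15 using matplotlib 3.10.9.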

Additional observations from a re-analysis of the deposited data

Results flagged for a closer look

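In 120 groups of 5 libraries looked at, 1 library stood far from the other 4 in 6, and chance alone gives about 1 in 20. In Con at 8 weeks, replicate 1 had 864 TPM of mt-Nd6, the only protein gene of the light strand, against 1381 to 1584 in the others, and replicate 5 had 59250 TPM of mt-Cytb against 51070 to 52070. In Con at 2 weeks, replicate 4 had 1433 TPM of Pnpla2 against 1216 to 1251, and replicate 5 had 7.33 TPM of Fkbp5 against 1.25 to 2.14. Replicate 3 of Con at 2 weeks had 325 TPM of Hba-a2 against 44.3 to 51.6, and replicate 2 had 12.4 TPM of Dok4 against 9.96 to 10.4.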

How the results depend on the processing

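The 4 calls of Con at 8 against 2 weeks, of which 1 was a list member, depended on the setting. The calls over all genes, with those of list members after the word and, were 17 and 4 on mt-free TPM, 27 and 5 with median-of-ratios rescaling, 0 and 0 with quantile normalization, 29 and 8 with a pseudocount of 0.1, 0 and 0 without a filter, 56 and 11 with a filter at 5 TPM, 1299 and 132 in the 10 libraries alone, and 4066 and 267 with library weights. With alternatives chosen after seeing the data they were 247 and 25 in the 10 libraries on mt-free TPM, 230 and 24 there with median-of-ratios rescaling, 675 and 64 without replicates 3 and 4 of Con at 4 weeks, 62 and 4 the same on mt-free TPM, and 0 and 0 with the GC and length correction. With the replicate number as a block there were 9 and 3. Numbers did not pair the libraries: deviations of same-numbered libraries correlated at 0.109, -0.192, -0.027, 0.564 and 0.328. Leaving out each library gave 0 to 207 calls, 0 to 30 among list members, and 0 to 221 in the 10 libraries on mt-free TPM. Con at 6 against 2 weeks gave 8 to 296 on leaving out libraries, 373 in the groups compared alone and 1424 with library weights, and NCAC at 8 against 2 weeks 1 without a filter and 6 with weights. The mitochondrial share without mt-Atp8 differed by 1.77 points and did not pass the test. Tie1, Cisd3 and Dhodh kept a negative change under every alternative run, with limma adjusted p from 3.9e-06 to 0.163, 4.93e-07 to 0.143 and 4.07e-06 to 0.216. The cause of these differences was not tested, and an unknown depth limits what can be said of low genes.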
